A study of Drosophila melanogaster with 27 samples.

Results

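The insect cuticle is built from chitin fibres and structural proteins, and many of these proteins are encoded by the *Cpr* genes and the Tweedle (*Twdl*) genes. Genes were taken as members where the array's annotation gave a probe set a single gene symbol that began with Cpr and a digit, or with Twdl, and the brightest such probe set stood for the gene. This gave 78 genes, 58 *Cpr* and 20 *Twdl*, of 10844 genes with such a probe set, and they were carried by 84 of the 13966 probe sets. Each symbol stood in the reference annotation under the same name. Of the 78 members, 75 (56 *Cpr* and 19 *Twdl*) passed the filter on low values in some stage and were tested, and *Twdlalpha*, *Cpr67Fa2* and *Cpr49Ae* did not pass.

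*Cpr* proteins share the Rebers and Riddiford consensus, an extended stretch that binds chitin, and most are named after the cytological band of their gene. Tweedle proteins form a separate family of secreted cuticle proteins, named after a *TwdlD* mutation that makes larvae and pupae short and squat. At pupariation the cuticle of the last larval instar is contracted and tanned into the puparium, and within it the epidermis of the prepupa lays down the pupal cuticle, which surrounds the animal after head eversion. For most members only the family is known with certainty here, so single roles are given for few of them.

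All samples were whole *w1118* animals, an otherwise wild-type white-eyed strain that received no treatment apart from bromophenol blue (0.05%) in the larval food, which colors the gut and was used for staging. The groups were wandering larvae of the third instar at -18 h, with dark blue guts, and at -4 h, with clear guts, prepupae at 0, 2, 4, 6, 8 and 10 h after pupariation, and pupae at 12 h. Each stage had 3 arrays of 1 color, each from the RNA of 10 animals, 27 in all, and each array gave 1 linear intensity per probe set. The question addressed is how the expression of the 2 families follows the passage from larva to pupa.

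Array medians lay between 249.4 and 277.3. The lowest intensities, under 60.26 (the 10th percentile of all values), were raised to that floor before taking log2, and no more than 10.8% of the probe sets of any array lay at or below it. The larval arrays were the least alike, with pairwise correlations from 0.845 at -18 h, against 0.991 to 0.995 at 8 h, and a median SD of the members of 0.30 (log2) in the -18 h arrays and 0.24 in the -4 h arrays, but 0.09 in those of 8 h. The arrays -18 h replicate 2 and -4 h replicate 1 stood apart from the other larval arrays. A further array went against its stage: the summed intensity of 6 salivary glue genes was 37406 in replicate 3 of 2 h, against 5931 and 3031 in replicates 1 and 2, and between 26386 and 35726 at 0 h. The scale of an intensity differs between probe sets, so that changes are compared within a gene and levels are not ranked between genes. In RNA of whole animals, fewer cells of a type and less RNA per cell cannot be told apart.

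Most members changed over the 9 stages, and many of them over a wide range. In the F-test of limma over all stages, with a Benjamini-Hochberg adjusted p under 0.1 and a range of stage means of at least 1.5-fold, 49 of 75 members (65.3%) were called, against 49.5% of the 12854 probe sets tested. Here and below, each member counts by its brightest probe set alone. The share over all probe sets also includes dimmer sets of the same gene, sets without a single symbol and the members' own. By family, 38 of 56 *Cpr* genes (67.9%) and 11 of 19 *Twdl* genes (57.9%) were called. A range of at least 4-fold was found for 25 members (33.3%, against 8.61% of all probe sets), and of at least 16-fold for 10 members (13.3%, against 1.88%). The median range was 1.97-fold in the members, 2.14-fold in *Cpr* and 1.62-fold in *Twdl* genes, and 1.57-fold in all tested probe sets. The widest ranges were those of *Cpr65Ec* (95.7-fold), *Cpr72Eb* (64.5-fold), *Cpr47Ec* (46.4-fold), *TwdlE* (40.0-fold) and *TwdlT* (37.4-fold). The call of 42 of the 49 members held in every alternative tried, and 46 were called without the 2 deviating larval arrays.

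The members' highest means fell above all at -18, 8 and 10 h. Of the 49 called members, 12 had their highest mean at -18 h and 2 at -4 h. None peaked at pupariation (0 h). The stages 2, 4 and 6 h held 1, 2 and 1 genes, and 8, 10 and 12 h held 11, 15 and 5. The share at 10 h was 30.6%, against 8.24% of all called probe sets, and that at 8 h was 22.4%, against 12%. The shares at -18 h (24.5%, against 26.4%) and 12 h (10.2%, against 11.7%) were near those of all called probe sets. The interval from 0 to 4 h, when the puparium is formed and tanned, thus held 3 of the 49 (6.12%), against 30.8% of all called probe sets. The stages 10 and 12 h held 20 (40.8%, against 19.9%), 6 and 8 h held 12 (24.5%, against 17.4%) and the larval stages held 14 (28.6%, against 31.9%). These counts are a description and were not tested. The larval count was 11 without the 2 deviating larval arrays and 21 without replicate 1 of -18 h.

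**Figure D1:**
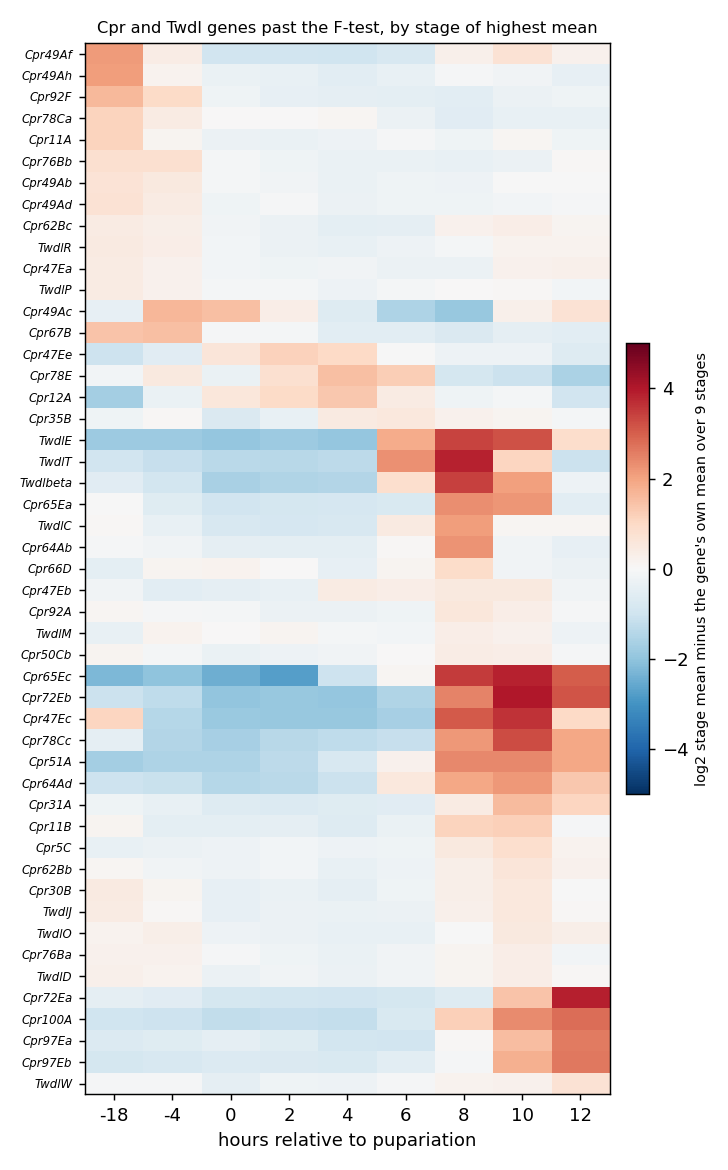
Heat map of the 49 *Cpr* and *Twdl* genes past the F-test, with 1 row per gene ordered by stage of highest mean and 1 column per stage (hours relative to pupariation, 3 arrays each, columns evenly spaced). Color gives the log2 stage mean minus the gene's own mean over the 9 stages; the lower rows hold the genes with their highest mean at 8, 10 or 12 h, of which the widest in range (*Cpr65Ec*, *Cpr72Eb*, *Cpr47Ec*, *TwdlE* and *TwdlT*) stood low from 0 to 2 h.

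The stage of highest mean was often not sharply set. In 34 of the 49 the highest and the next stage differed by less than 1.5-fold, and in 21 the arrays of these stages overlapped. The shares among all called probe sets were not counted, so these counts do not set the members apart.

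The step to 8 h changed more members than any other. The largest number of members, 21 of 75 (28%), rose at 8 h relative to 6 h, against 3.71% of all probe sets, and only *Cpr78E* and *Cpr12A* fell (1.55% of all probe sets fell). At 12 h relative to 10 h, 12 members fell (16%, against 2.89%) and 3 rose (1.98% of all probe sets rose). At 10 h relative to 8 h, 8 rose (background 2.03%) and 5 fell (background 3.38%), and at 6 h relative to 4 h, 7 rose (1.87%) and 3 fell (1.46%). At -4 h relative to -18 h, 3 members rose (9.86% of all probe sets) and 8 fell (3.66%), and at 0 h relative to -4 h, 2 rose (4.61%) and 6 fell (3.38%). These early counts rested on single arrays: in all, 20 members rather than 11 were called at -4 h without its replicate 1, and 19 rather than 8 at 0 h without replicate 2 of -4 h (16 without replicate 3 of -4 h). The shares of all probe sets called without these arrays are not given here, so the members' moves cannot be set against them. At 2 h relative to 0 h, 1 rose (0.786%) and 1 fell (1.85%), and at 4 h relative to 2 h, 3 rose (1.49%) and 1 fell (1.27%). The median log2 change of the members was 0.24 at 8 h relative to 6 h, against 0.01 for all probe sets, and -0.20 at 12 h relative to 10 h, against 0.01. A stage's 3 arrays enter the step before it and the step after it, so that a rise and the following fall are not independent.

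**Figure D2:**
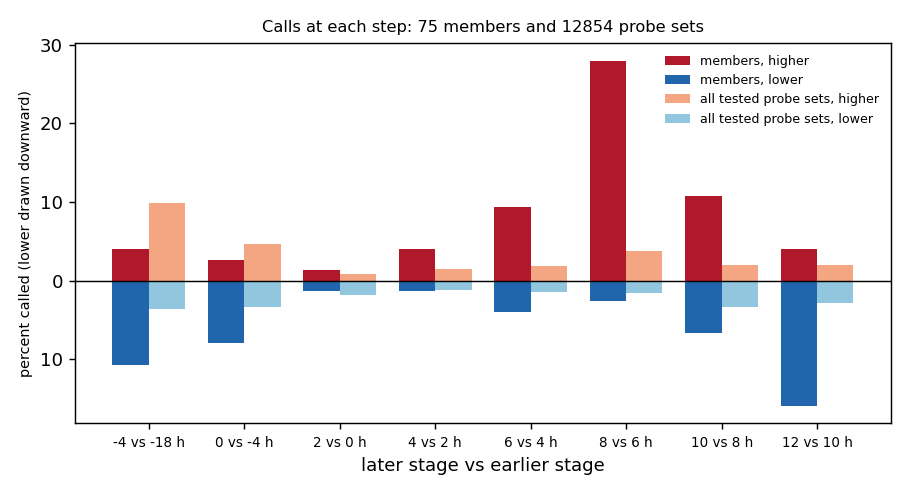
Percent of the 75 tested members (dark bars) and of all 12854 tested probe sets (light bars) called higher (upward) or lower (downward, drawn below 0) at each of 8 consecutive steps, later stage against earlier stage. Among the members, 28% were higher at 8 h relative to 6 h, and 16% were lower at 12 h relative to 10 h.

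*Cpr49Ah*, *Cpr49Af*, *Cpr92F* and *Cpr78Ca* were highest at -18 h and fell before or at pupariation. *Cpr49Ah* had intensities of 114, 87.2 and 98.5 at -4 h, against 458, 272 and 437 at -18 h. The stages did not overlap, and the fall was 3.82-fold (log2 -1.93, SE 0.16, adjusted p = 4.25e-09). Its arrays lay between 53.5 and 92.8 from 0 h to 12 h, near the floor. *Cpr49Af* had 1180, 268 and 393 at -4 h, against 2114, 1030 and 2086 at -18 h (3.32-fold lower, adjusted p = 0.000485). Here the deviating replicate 1 of -4 h lay within the range of the -18 h arrays. At 0 h *Cpr49Af* stood at 194, 191 and 212, a further fall of 2.51-fold (adjusted p = 0.0121), and at 10 h it had come back to 565, 662 and 657, 3.26-fold above 4 h (adjusted p = 0.000471). *Cpr92F* had 72.5, 66.9 and 85.4 at 0 h, against 231, 136 and 149 at -4 h (2.25-fold lower, adjusted p = 0.000273), and had no called change thereafter. *Cpr78Ca* declined in the 2 larval stages, with 607, 438 and 608 at -4 h, against 955, 820 and 939 at -18 h (1.66-fold lower, adjusted p = 0.000184). It had no later rise that was called. In fits to the 6 arrays of the 2 stages alone, *Cpr49Af* lost its calls at -4 h (adjusted p = 0.255) and 0 h (adjusted p = 0.26). *Cpr78Ca* lost its call at -4 h (adjusted p = 0.114), while those of *Cpr49Ah* at -4 h and *Cpr92F* at 0 h held.

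*Cpr47Ec* and *Cpr78Cc* were among the 8 members that fell before pupariation, although their highest stage was 10 h. *Cpr47Ec* had 167, 86.2 and 87.2 at -4 h, against 518, 438 and 935 at -18 h, which was the largest fall of this step (5.53-fold, log2 -2.47, SE 0.22, adjusted p = 1.49e-08). *Cpr78Cc* had 583, 311 and 312 at -4 h, against 751, 767 and 855 at -18 h (2.06-fold lower, adjusted p = 7.96e-05). The stages did not overlap in either gene. Apart from *Cpr49Ac* and *Cpr12A*, described next, only *Cpr66D* rose (1.55-fold). The falls of *Cpr11A* (1.95-fold), *Cpr92F* (1.56-fold) and *Cpr11B* (1.53-fold) were smaller. In the same samples, the summed intensity of 8 midgut genes was 41141 to 54486 at -4 h, against 93428 to 98269 at -18 h, and that of 5 muscle genes was 6557 to 9808 at -4 h, against 37944 to 39570 at -18 h, with all of these markers above the floor at both stages. The part of tissue composition in the larval falls was not tested. The falls of *Cpr47Ec*, *Cpr49Ah* and *Cpr11A* held in every alternative, and leaving out replicate 1 of -4 h raised the count of falls at this step to 15.

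A small group was highest around pupariation. *Cpr49Ac* had 14395, 14970 and 14249 at -4 h, against 5680, 1760 and 4233 at -18 h (4.17-fold higher, log2 2.06, SE 0.27, adjusted p = 6.71e-06), and the lowest -18 h value was that of the deviating replicate 2. It remained at 11482, 13786 and 13657 at 0 h. The 2 h arrays then stood at 5336, 5188 and 7232, the 4 h arrays at 2987, 3280 and 2710 and the 6 h arrays at 1689, 1410 and 1651. The lowest values, 1375, 1154 and 1183, were those of 8 h. Each of the falls at 2, 4 and 6 h was called (2.21-fold, 1.96-fold and 1.89-fold), but that at 4 h lost its call without any of 5 of the 6 arrays (adjusted p = 0.102 to 0.296), and that at 6 h without any of the 6 (adjusted p = 0.108 to 0.251). The highest of these p-values for 4 h came without replicate 3 of 2 h, the array high in glue transcripts. Both calls held in fits to the 6 arrays of the 2 stages alone, which leave out the spread of the -18 h arrays. *Cpr49Ac* then rose again, to 4605, 6005 and 6215 at 10 h, against those 8 h values (4.51-fold, adjusted p = 5.37e-06), and had 5543, 8702 and 9326 at 12 h. It was the only member that was called higher, lower and higher again in this way, with its second rise at 10 h after pupariation.

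*Cpr12A*, *Cpr47Ee* and *Cpr78E* reached their highest levels after pupariation. *Cpr12A* had 1184, 1367 and 1648 at -4 h, against 597, 501 and 536 at -18 h (2.55-fold higher, adjusted p = 8.2e-06), and 3133, 2715 and 1992 at 0 h, 1.85-fold above -4 h (adjusted p = 0.00256). It had 2701, 1833 and 2576 at 6 h, against its highest values of 5051, 4432 and 4005 at 4 h (1.92-fold lower, adjusted p = 0.00192). *Cpr47Ee* had 418, 439 and 385 at 0 h, against 171, 207 and 173 at -4 h (2.26-fold higher, adjusted p = 1.51e-05), was highest at 2 h (586, 564 and 673), and had 230, 264 and 308 at 6 h, against 634, 555 and 451 at 4 h (2.04-fold lower, adjusted p = 8.21e-05). These were the only 2 members that rose at 0 h relative to -4 h. *Cpr78E* had 8154, 7569 and 9044 at 2 h, against 3885, 3995 and 3354 at 0 h. The arrays did not overlap, and the rise of 2.21-fold had an adjusted p of 0.047. The call was lost without any of 5 of the 6 arrays, with an adjusted p of 0.115 to 0.203. It held in a fit to the 6 arrays of 0 and 2 h alone. The main fit also takes in the spread of the -18 h arrays (7009, 1765 and 5990). Its highest values, 13346, 12707 and 13336, were at 4 h.

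*Cpr78E* also showed the sharpest fall among these genes. It had 2618, 2541 and 2435 at 8 h, against 11278, 10601 and 11337 at 6 h (4.37-fold lower, log2 -2.13, SE 0.31, adjusted p = 3.24e-05), at the step at which 21 other members rose. *Cpr12A* fell 1.57-fold at this step (adjusted p = 0.0288), a call lost without replicate 1 or 3 of 6 h or replicate 3 of 8 h. *Cpr67B* and *Cpr35B* fell earlier. *Cpr67B* had 107, 142 and 135 at 0 h, against 241, 404 and 536 at -4 h (2.94-fold lower, adjusted p = 0.00116), and *Cpr35B* fell at 0 h (1.71-fold, adjusted p = 3.47e-05) and rose at 4 h, where it had 245, 272 and 300, against 138, 169 and 155 at 2 h (1.77-fold, adjusted p = 1.5e-05).

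**Figure D3:**
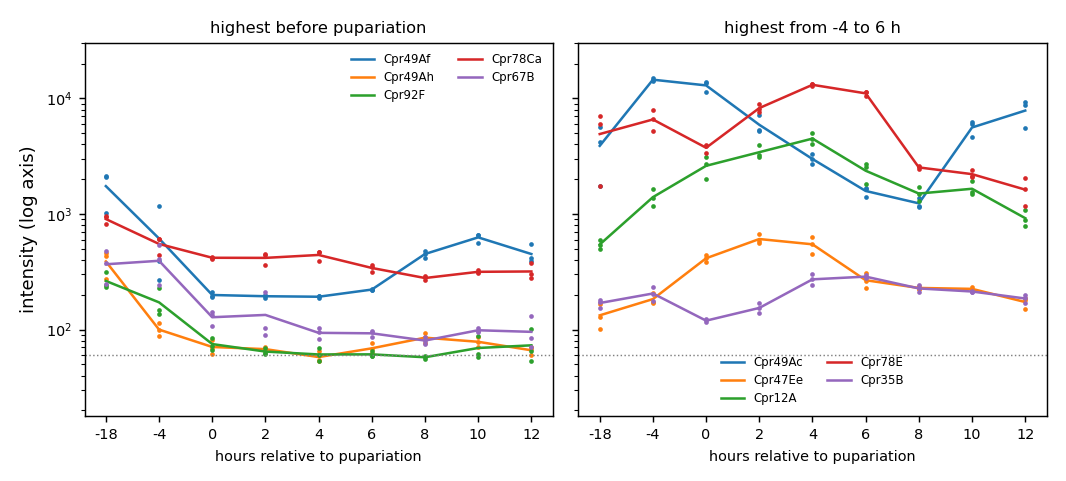
Intensity (log axis) at each stage (hours relative to pupariation, stages evenly spaced) of 5 genes highest before pupariation (left) and 5 genes highest from -4 to 6 h (right); points are the 3 arrays of a stage, lines join their means and the dotted line is the floor of 60.26. *Cpr49Ac* is high at -4 and 0 h and again at 10 and 12 h, and *Cpr78E* drops between 6 and 8 h.

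The largest rises at 6 h were those of Tweedle genes. Of the 7 members called higher at 6 h relative to 4 h, 4 were *Twdl* genes, and 2 of these had the largest rises. *TwdlE* had 6275, 4255 and 4639 at 6 h, against 403, 328 and 351 at 4 h (13.9-fold, log2 3.79, SE 0.23, adjusted p = 1.75e-10). *TwdlT* had 5697, 3939 and 3940 at 6 h, against 382, 362 and 359 at 4 h (12.1-fold, log2 3.60, SE 0.13, adjusted p = 7.16e-15). In both genes, every 6 h array was at least 10 times the highest 4 h array. *Twdlbeta* had 1648, 917 and 1268 at 6 h, against 230, 248 and 278 at 4 h (4.95-fold, adjusted p = 0.000116), and *TwdlC* rose 2.34-fold (adjusted p = 8.44e-07). The *Cpr* genes that rose were *Cpr64Ad* (3.03-fold), *Cpr65Ec* (2.16-fold) and *Cpr51A* (2.02-fold). All 7 rises were called in every alternative. *Cpr65Ec* had begun earlier, with 478, 405 and 512 at 4 h, against 132, 149 and 145 at 2 h (3.27-fold, adjusted p = 8.46e-07), the largest called rise at 4 h. *Cpr47Eb* rose 1.74-fold at that step (adjusted p = 0.00197).

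At 8 h, 17 *Cpr* and 4 *Twdl* genes rose. *Cpr47Ec* had 2610, 2279 and 2267 at 8 h, against 90.9, 90.6 and 89.7 at 6 h, the largest rise of the families at any step (26.3-fold, log2 4.72, SE 0.22, adjusted p = 2.04e-13). *Cpr72Eb* had 4626, 3567 and 4377 at 8 h, against 248, 265 and 267 at 6 h (16.02-fold, adjusted p = 1.47e-09). *Cpr65Ec* had 10823, 10647 and 10962 at 8 h, against 1316, 777 and 983 at 6 h (10.8-fold, adjusted p = 2.64e-12). *Cpr47Ec* and *Cpr72Eb* thus passed in 2 h to high levels from values with no called change since 0 h, whereas *Cpr65Ec* had climbed since 4 h. *Cpr78Cc* had 5230, 4548 and 4581 at 8 h, against 512, 476 and 447 at 6 h (10.0-fold, adjusted p = 1.22e-12), and *Cpr65Ea* had 1557, 1421 and 1364 at 8 h, against 176, 166 and 170 at 6 h (8.47-fold, adjusted p = 9.07e-13). Further rises were those of *Twdlbeta* (5.92-fold), *Cpr51A* (4.61-fold), *Cpr64Ab* (4.61-fold), *Cpr100A* (3.85-fold), *TwdlC* (3.12-fold), *TwdlT* (2.91-fold), *TwdlE* (2.86-fold), *Cpr11B* (2.79-fold), *Cpr64Ad* (2.63-fold), *Cpr49Af* (2.03-fold) and *Cpr97Ea* (2.03-fold). The remaining 5, *Cpr31A*, *Cpr92A*, *Cpr66D*, *Cpr5C* and *Cpr62Bc*, rose between 1.57-fold and 1.95-fold.

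In the same arrays the summed intensity of 7 genes of the chitin-secreting epidermis and trachea was 47294 to 48928 at 8 h, against 20398 to 26974 at 6 h. All 7 were above the floor at both stages, and 4 of them (*Gasp*, *obst-A*, *serp* and *verm*) rose. The other 3, *knk*, *kkv* and *grh*, had no called change. *Gasp* and *obst-A* are also counted below among the other cuticle protein genes, and *serp* and *verm* among the chitin assembly genes. The sum is thus not independent of the counts of those lists. The part of cell number in the rise of the members was not tested. Of the 21 rises, 18 held in every alternative, and those of *Cpr49Af*, *Cpr62Bc* and *Cpr5C* did not: *Cpr49Af* and *Cpr62Bc* lost their call without any single array of the 2 stages (adjusted p up to 0.203 and 0.28). The calls of *Cpr49Af* and *Cpr62Bc* held in a fit to the 6 arrays of these stages alone.

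The members highest at 8 h left this level at different times. *TwdlT* had 13148, 13193 and 12563 at 8 h, with 2298, 1845 and 1561 at 10 h (6.91-fold lower, log2 -2.79, SE 0.13, adjusted p = 2.96e-13) and 450, 439 and 415 at 12 h, a further fall of 4.32-fold. *Cpr64Ab* had 491, 442 and 473 at 10 h, against 2511, 2916 and 2231 at 8 h (5.42-fold lower, adjusted p = 9.03e-09), and *TwdlC* had 739, 779 and 802 at 10 h, against 3356, 2966 and 2772 at 8 h (3.91-fold lower, adjusted p = 1.77e-10). These 3 genes were thus high at 8 h, with lower levels 2 h before and 2 h after. *Twdlbeta* fell at 10 h (2.54-fold, adjusted p = 0.0164) and again at 12 h (5.04-fold). *TwdlE*, by comparison, had 13030, 12130 and 12779 at 10 h, against 14552, 13762 and 14450 at 8 h, a difference that was not called, and fell to 1872, 2625 and 3374 at 12 h (4.96-fold, adjusted p = 2.41e-07). *Cpr65Ea* also kept its level at 10 h and fell at 12 h, with 1526, 1199 and 1269 at 10 h and 166, 190 and 251 at 12 h (6.64-fold lower, adjusted p = 1.7e-11).

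At 10 h the rises were all in *Cpr* genes, 8 in number. Apart from *Cpr49Ac*, the largest was that of *Cpr72Ea*, which had 1281, 1777 and 1277 at 10 h, against 340, 349 and 335 at 8 h (4.18-fold, log2 2.06, SE 0.15, adjusted p = 1.05e-09). *Cpr97Eb* had 2575, 2925 and 2562 at 10 h, against 780, 753 and 751 at 8 h (3.52-fold, adjusted p = 1.11e-12), and *Cpr97Ea* had 2782, 3007 and 2696, against 1088, 968 and 977 at 8 h (2.80-fold, adjusted p = 1.91e-09). *Cpr72Eb* reached its highest values, 12230, 11614 and 12506, at 10 h (2.91-fold above 8 h, adjusted p = 0.00161), as did *Cpr78Cc* with 10932, 10120 and 9920 (2.16-fold, adjusted p = 6.63e-05). *Cpr31A* (2.26-fold) and *Cpr100A* (2.26-fold) also rose. All 13 calls of this step were unchanged in every alternative.

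At 12 h, in pupae, 3 genes were still rising. *Cpr72Ea* had 9980, 7791 and 6277 at 12 h, against its 10 h values of 1281, 1777 and 1277 (5.52-fold higher, log2 2.46, SE 0.15, adjusted p = 6.52e-11). *Cpr97Ea* had 6268, 6174 and 5212 at 12 h (2.08-fold above 10 h, adjusted p = 5.27e-07), and *Cpr97Eb* had 4958, 4988 and 4688 (1.82-fold, adjusted p = 2.6e-07). *Cpr100A* had 16104, 16141 and 16779 at 12 h, against 12257, 12322 and 12513 at 10 h, and these did not overlap, but the 1.32-fold difference was under the limit for a call. Together with *TwdlW*, these were the 5 members with their highest mean in pupae.

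Of the 12 genes that fell at 12 h, 10 had risen at 8 h, all but *Cpr12A* and *Cpr47Eb*. *Cpr47Ec* had 584, 612 and 526 at 12 h, against 3819, 3486 and 3276 at 10 h (6.15-fold lower, log2 -2.62, SE 0.22, adjusted p = 8.96e-09), which brought it to its range at -18 h. *Cpr78Cc* had 3394, 4284 and 4752 at 12 h, 2.51-fold below its 10 h values (adjusted p = 6.68e-06). *Cpr11B* fell 2.39-fold, *Cpr12A* 1.80-fold, *Cpr65Ec* 1.76-fold, *Cpr64Ad* 1.73-fold, *Cpr5C* 1.60-fold and *Cpr47Eb* 1.59-fold. *Cpr65Ec* still had 6643, 7896 and 8770 at 12 h, far above its 6 h values. The calls of *Cpr47Eb*, without replicate 2 of 10 h, and *Cpr5C*, under quantile normalization, were lost because the fold dropped below 1.5.

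**Figure D4:**
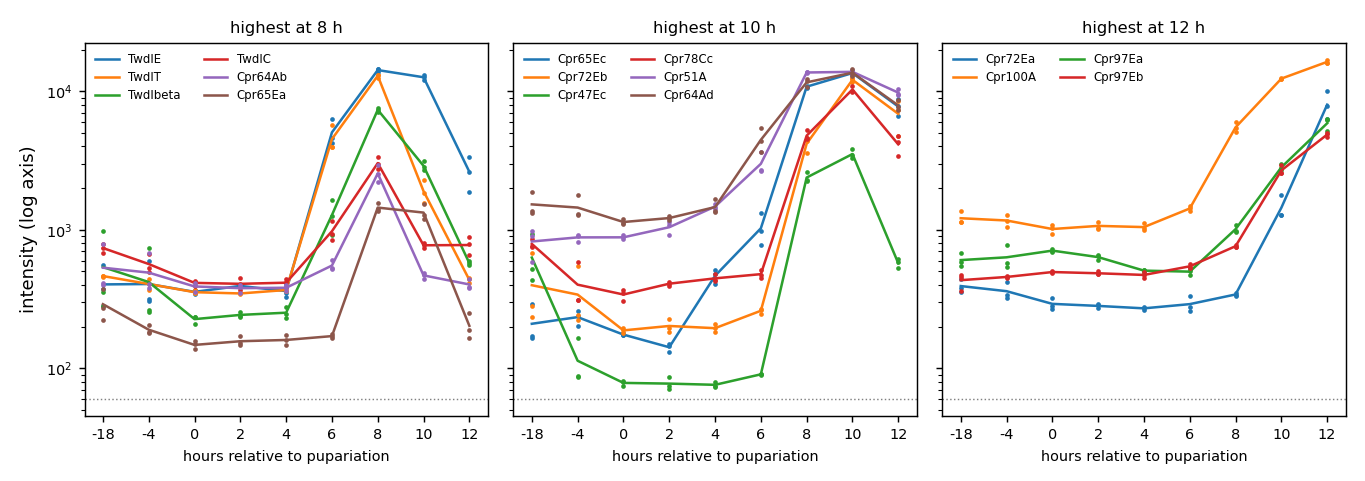
Intensity (log axis) at each stage (hours relative to pupariation, stages evenly spaced) of genes highest at 8 h (left), 10 h (middle) and 12 h (right); points are the 3 arrays of a stage, lines join their means and the dotted line is the floor of 60.26. *TwdlT*, *TwdlC* and *Cpr64Ab* form narrow peaks at 8 h, and *Cpr72Ea*, *Cpr97Ea* and *Cpr97Eb* climb through 12 h.

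Across the whole prepupal interval, 28 of 75 members (37.3%) were higher at 10 h than at 4 h, against 5.66% of all probe sets, and 3 were lower, against 8.05%. The median log2 change was 0.35 in the members and 0.02 in all probe sets. *Cpr72Eb* (62.3-fold), *Cpr47Ec* (46.4-fold), *TwdlE* (35.2-fold), *Cpr65Ec* (29.3-fold), *Cpr78Cc* (23.2-fold), *Cpr100A* (11.8-fold) and *Twdlbeta* (11.5-fold) had the largest rises. The 3 genes lower at 10 h were *Cpr78E*, with 2391, 2154 and 2096 at 10 h, against 13346, 12707 and 13336 at 4 h (5.94-fold, adjusted p = 1.14e-06), *Cpr12A* (2.72-fold, adjusted p = 2.07e-06) and *Cpr47Ee* (2.41-fold, adjusted p = 1.01e-06). These were the same 3 genes that had their highest mean at 2 or 4 h. Both results come from the same values, so this match is not a separate finding. In all 31 called genes the arrays of the 2 stages did not overlap. The share without overlap among all called probe sets was not counted, so this adds no support to the calls.

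Many *Cpr* genes lie beside each other in the genome, and neighbors often differed in their course. By gene order in the reference annotation (Release 6 plus ISO1 MT), *Cpr65Ea*, *Cpr65Eb* and *Cpr65Ec* are adjacent genes on 3L. *Cpr65Ea* was high at 8 and 10 h and low again at 12 h and *Cpr65Ec* was high from 8 to 12 h, while *Cpr65Eb* had a range of 1.31-fold and was not called. The adjacent *Cpr64Aa*, *Cpr64Ab*, *Cpr64Ac* and *Cpr64Ad* alternated: *Cpr64Ab* peaked at 8 h (range 6.71-fold) and *Cpr64Ad* at 10 h (range 12.0-fold), whereas *Cpr64Aa* (1.28-fold) and *Cpr64Ac* (1.14-fold) were not called. *Cpr64Aa* lay between 1293 and 1977 on all arrays, far above the floor of 60.26. The reason for its steady course was not tested.

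At 72E, *Cpr72Eb* rose at 8 h and *Cpr72Ea*, its neighbor, 2 h later. *Cpr72Eb* was highest at 10 h and *Cpr72Ea* at 12 h, and *Cpr72Ec* had a range of 1.38-fold. At 78C, *Cpr78Ca* was lowest at 8 h, where *Cpr78Cc* had risen 10.0-fold, and *Cpr78Cb*, between them in name, had a range of 1.43-fold and was not called. *Cpr97Ea* and *Cpr97Eb*, in contrast, were highest at the same stage with ranges of 11.8-fold and 11.3-fold. The 7 genes of 47E on 2R had highest stages at -18 h (*Cpr47Ea*, range 1.63-fold), 8 h (*Cpr47Eb*, 2.00-fold), 10 h (*Cpr47Ec*) and 2 h (*Cpr47Ee*, 4.66-fold), and *Cpr47Ed*, *Cpr47Ef* and *Cpr47Eg* were not called in the F-test. *Cpr47Ed* was called lower at 0 h than at -4 h (adjusted p = 0.0791) through replicate 1 of -4 h alone, with 140, 136 and 150 at 0 h, against 802, 184 and 170 at -4 h, and its adjusted p was 0.629 without that array.

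Of the 49A genes, *Cpr49Ab*, *Cpr49Ad*, *Cpr49Af* and *Cpr49Ah* were highest at -18 h and *Cpr49Ac* at -4 h, and *Cpr49Ae* was at or below the floor on all 27 arrays. *Cpr49Ab* and *Cpr49Ad* had ranges of 2.02-fold and 2.00-fold. The fall of *Cpr49Ab* at 0 h relative to -4 h (1.53-fold, adjusted p = 0.089) lost its call without any of 5 of the 6 arrays (adjusted p up to 0.263). In 62B, *Cpr62Bb* was highest at 10 h (1.97-fold) and *Cpr62Bc* at -18 h (1.89-fold), and *Cpr62Ba* was not called. In 76B, *Cpr76Ba* (1.57-fold) and *Cpr76Bb* (2.23-fold) were called and *Cpr76Bc* and *Cpr76Bd* were not. The call of *Cpr76Bb* rested on the larval arrays, with 372, 61.7 and 104 at -4 h and 82.8, 213 and 138 at -18 h, of which the highest of each stage was a deviating array.

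**Figure D5:**
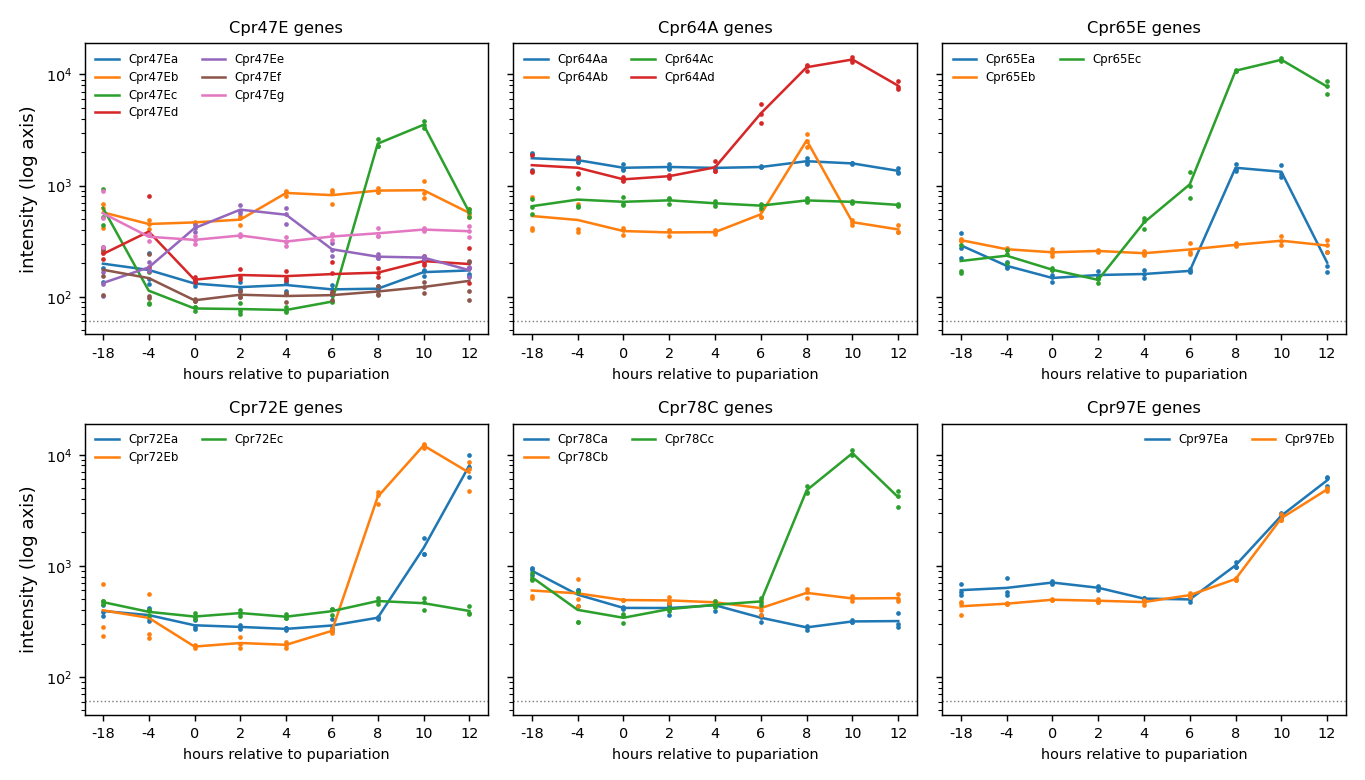
Intensity (log axis) at each stage (hours relative to pupariation, stages evenly spaced) of *Cpr* genes at 6 cytological positions; points are the 3 arrays of a stage, lines join their means and the dotted line is the floor of 60.26. Within 47E, 64A, 65E, 72E and 78C some genes rise by 8 or 10 h beside others with no such rise, and at 97E both genes rise together.

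The *Twdl* genes with wide ranges were few. The 4 *Twdl* genes with a range of at least 4-fold, *TwdlE*, *TwdlT*, *Twdlbeta* and *TwdlC*, were all highest at 8 h. On 3R, a run of 11 genes with no more than 2 other genes between neighbors (*TwdlM*, *TwdlP*, *TwdlL*, *TwdlO*, *TwdlK*, *TwdlJ*, *TwdlN*, *TwdlR*, *TwdlS*, *TwdlD* and *TwdlQ*) contained none with a range over 2-fold. Of all tested probe sets 49.5% were called in the F-test, and of these 11 genes 6 were, a share near that. *TwdlJ* was the widest of these (1.93-fold), with 4844, 4763 and 4732 at 10 h, against 2342, 2536 and 2954 at 4 h (1.84-fold higher, adjusted p = 0.000656). *TwdlD*, the gene behind the family's name, had 791, 705 and 767 at 10 h, against 456, 498 and 526 at 4 h (1.53-fold higher, adjusted p = 0.00346), a call lost without replicate 1 of either stage. *TwdlO* rose 1.86-fold between the same stages. *TwdlM* (1.62-fold) was highest at 8 h, and *TwdlP* (1.59-fold) and *TwdlR* (1.75-fold) were highest at -18 h. *TwdlR* had 467, 194 and 217 at -4 h and 215, 513 and 218 at -18 h, of which the highest of each stage was a deviating array, and its call was lost in 18 of 36 alternatives. That of *TwdlP* was lost in 4 of 36. *TwdlK*, *TwdlL*, *TwdlN*, *TwdlQ* and *TwdlS* were not called, nor were the neighbors *TwdlF*, *TwdlG* and *TwdlV*. *TwdlW* had 619, 694 and 737 at 12 h, against 456, 486 and 503 at 10 h, without overlap but 1.42-fold apart. *Twdlalpha* was at or below the floor on 20 arrays.

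Among the 26 tested members not called was *Cpr64Aa*, described above. *Cpr73D* had a range of 1.30-fold with an adjusted p of 0.0148, and *TwdlN* one of 1.499-fold (adjusted p = 0.082), just under the limit. For 6 genes the array held another, dimmer probe set. That of *TwdlT* was also highest at 8 h, with 969, 1055 and 888 at 6 h, then 1348, 1354 and 1302, and 492, 541 and 491 at 10 h, and had a narrower range of 4.27-fold. Those of *Cpr66D* were both highest at 8 h (2.65-fold and 5.70-fold). Those of *Cpr73D* were highest at 8 h and at -18 h. For *TwdlJ*, *TwdlM* and *TwdlN* the other probe set was dim (mean 64.2 to 105) and had another highest stage, and the brightest sets of these 3 carry suffixes that the maker gives to probe sets that did not meet all design rules or that match a gene family, and their values are uncertain for this reason.

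Other cuticle genes moved at the same steps. Membership in the 2 families went by gene symbol, so genes with other symbols can still encode proteins with the Rebers and Riddiford consensus. Of 36 listed cuticle protein genes with other symbols, 24 were measured. At 8 h relative to 6 h, 16 of them rose and none fell. At 10 h relative to 4 h, 17 rose and none fell, and at 12 h relative to 10 h none rose and 9 fell. *Edg84A*, which encodes a pupal cuticle protein, had means of 445, 9516, 15603 and 4899 at the stages 6, 8, 10 and 12 h, and *Edg78E* had 956, 6846, 7429 and 5782. *Pcp*, another pupal cuticle protein gene, had 5107 at -4 h and 10069 at 10 h and, like *Cpr49Ac*, was lower between these stages (250 at 6 h). Of 18 chitin assembly genes, 7 rose and 3 fell at 8 h, and 11 rose and 3 fell at 10 h relative to 4 h. Over all tested probe sets, 3.71% rose and 1.55% fell at 8 h relative to 6 h. These shares were 5.66% and 8.05% at 10 h relative to 4 h, and 1.98% and 2.89% at 12 h relative to 10 h. At 6 h relative to 4 h they were 1.87% and 1.46%. Of 9 tanning enzyme genes, 2 rose and 1 fell at 8 h, and their summed intensity was highest at 0 h (31899 to 33071), the stage at which no called member of the 2 families had its highest mean. Of 12 tested regulators of the 20-hydroxyecdysone cascade, *ftz-f1*, a nuclear receptor gene of mid-prepupae, was the only one to rise at 6 h relative to 4 h and at 8 h relative to 6 h, with means of 95.0, 458, 1236 and 259 at the stages 4, 6, 8 and 10 h. A link between it and the members was not tested.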

How the data were processed

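RNA of 27 samples, 3 for each of 9 stages, was measured on Affymetrix *Drosophila* Genome Arrays of 1 color. The deposited values are linear intensities, which the authors computed with dChip 1.2 after normalization of the arrays. Use of the mismatch probes, and the genome build, are not given in the sources used here. According to the study's methods, these were independent experiments in triplicate. The p-values rest on 1 spread per probe set, pooled over the 9 stages, and the precision is limited by the number of arrays. The median SD of the members was 0.30 at -18 h, against 0.09 at 8 h. Pooled p-values can thus be too small for larval steps and too large for later ones. Scanner files were not analysed here, and closeness of the brightest probes to saturation was not tested (highest member value 16779).

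Of the 13966 probe sets, 12443 had 1 symbol, 327 several and 1196 none. Values under 60.26 were set to that floor, log2 was taken, and 12854 probe sets, those for which some stage had its 3 arrays over this floor, entered the test. A linear model with stage as the only factor was fitted to all 27 arrays in R 4.3.3 by lmFit and eBayes (limma 3.58.1), with 18 residual and 3.55 prior degrees of freedom. Calls needed a Benjamini-Hochberg adjusted p under 0.1, over all tested probe sets, and 1.5-fold. Folds were taken between geometric means after flooring, and SE are in log2 units. The fit was tested on simulated data. Genes were named by rule: per stage of highest mean the 4 with the widest range, at each step the 2 largest called rises and falls, all *Twdl* genes, clusters of 3 or more and the 3 of highest mean intensity among those not called, and the remaining called genes are given by their folds. The members, lists and tests were chosen with earlier results of these data known. Alternatives were quantile or median scaling, a 20th-percentile floor, an added constant of 16 in place of a floor, no filter, array weights, a replicate block, fits to 6 arrays, the mean of probe sets, and leaving out arrays. Sequences were not used here. Figures were drawn with matplotlib 3.10.9.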

Additional observations from a re-analysis of the deposited data

How the results depend on the processing

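No change of a named member turned its direction: of 1552 values of 97 such changes under alternatives, 1485 kept their side of the threshold and 67 lost the call. The counts of members called in the F-test and at the 6 steps from 4 h on stayed within 1.5 times the main count under every alternative. Only early comparisons moved further. At -4 h relative to -18 h (11 members), a fit of these 6 arrays called 6 (3 higher, 3 lower), and leaving out single arrays gave 10 to 20, with 20 (5 higher, 15 lower) without -4 h replicate 1. Quantile normalization called 2 higher and 11 lower there, and scaling to a common median 2 and 10, against 3 and 8. At 0 h relative to -4 h (8 members) leaving out single arrays gave 6 to 19, with 19 without -4 h replicate 2 and 16 without -4 h replicate 3. At 2 h relative to 0 h (2 members) it gave 1 to 3. For the step to 4 h (4 members) the range was 3 to 4, for that to 6 h (10) always 9, for that to 8 h (23) it was 20 to 23, for that to 10 h (13) always 13, and for that to 12 h (15) it was 14 to 17. Between 10 and 4 h (31) it was 30 to 31 and in the F-test (49) 46 to 56. Quantile normalization called 5 higher and 11 lower at 12 h relative to 10 h, against 3 and 12, and placed 5 members rather than 3 highest at 0, 2 or 4 h. By stage of highest mean, single arrays moved the counts to 11 to 21 for the larval stages (14), 3 to 4 for 0, 2 and 4 h (3), 10 to 13 for 6 and 8 h (12) and 17 to 22 for 10 and 12 h (20). Where the cause of such a move is not given by the number of arrays, the cause was not tested. The shares of all probe sets under these alternatives are not given here. Whether the members moved more than all probe sets is therefore not shown. The main fit did not pair samples by replicate number. Deviations from the stage means correlated between -0.824 and 0.631 for arrays of the same number (median 0.168, with 52.8% of these pairs over 0.1). The median was -0.0618 for arrays of different numbers. From these values a weak pairing by number cannot be dismissed. With the replicate number as a block the counts were 49 in the F-test, 11, 9, 2, 4, 10, 23, 13 and 15 at the 8 steps and 31 at 10 h relative to 4 h. With 3 arrays a stage and the spread of the larval arrays, small larval changes could be missed. Some had a low adjusted p in the main fit and stayed uncalled through the fold limit alone. An example is *TwdlM* at -4 h relative to -18 h (1.489-fold higher, adjusted p = 0.000454).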

Other observations

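Probe sets that the annotation assigned to several genes were left out above. The probe set shared by *Cpr65Av* and *Cpr65Aw* was highest at -18 h, with a mean intensity of 1004 and a range of 2.45-fold (adjusted p = 8.14e-06), and that of *Cpr67Fa1* and *Cpr67Fa2* was highest at -18 h (268) with 231 at 10 h (range 1.91-fold, adjusted p = 2.36e-07). The probe set shared by *Cpr57A* and *Obp57d*, an odorant binding protein gene, was highest at -18 h (2140) and had 797 at 4 h and 1662 at 10 h (range 2.57-fold, adjusted p = 3.64e-07). The probe set shared by *TwdlL* and *TwdlB* had a range of 1.31-fold (adjusted p = 0.075). All 4 thus had their highest mean at -18 h, and which gene of each pair gave the signal cannot be told from the array.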
